A study of Mus musculus with 12 samples.

Results

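The cAMP and protein kinase A pathway genes described here are 10 genes taken by symbol from the deposited count table: Prkar1a, Prkar2b, Prkaca, Pde4a, Pde4b, Pde4d, Creb1, Crem, Sik1 and Ppargc1a. All 10 were found among the 55401 genes of the table, each under 1 identifier, and all 10 passed the filter on low counts. The sequenced RNA came from peritoneal cells of C57BL/6J mice, collected by rinsing the cavity with 8 mL of buffered saline. The ID8-FSHR group (4 libraries) received by intraperitoneal injection the line labelled ID8 (defb29/Vegf-a) FSHR, which carries the receptor for follicle-stimulating hormone. The ID8 group (4 libraries) received the line labelled ID8 (defb29/Vegf-a), a mouse ovarian cancer line named for added Defb29 and Vegfa, and both were sampled on day 7. The uninjected group (4 libraries) received nothing, so tumour and injection cannot be told apart. The sources used here do not give the age and sex of the mice, whether each line is a clone, or the promoter that drives each added gene, and the labels disagree on the number of cells injected.

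Cyclic AMP is made by adenylyl cyclases below receptors coupled to the stimulatory G protein, and the receptor for follicle-stimulating hormone is one of these. It binds the regulatory subunits of protein kinase A (PKA), which then release the catalytic subunits, and phosphodiesterases of the PDE4 family break it down. Freed catalytic subunits phosphorylate the transcription factor CREB, whose textbook targets include Crem, Sik1 and Ppargc1a. In macrophages and lymphocytes this pathway is best known for dampening inflammatory responses.

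Total counts ran from 48355885 to 57636459 in ID8-FSHR, from 47419608 to 64333677 in ID8 and from 50327658 to 57991979 in uninjected libraries. Levels are in CPM, counts scaled to the effective library size, and a gene is called, or said to rise or fall, where edgeR's quasi-likelihood test gave a Benjamini-Hochberg adjusted p under 0.05 over all tested genes. The Fshr row does not check the label: 2 of 4 ID8-FSHR libraries, 1 of 4 ID8 libraries and 0 of 4 uninjected libraries had any count, at most 7, and the sources used here leave out the sequence of the construct. ID8-FSHR replicate 2 stood apart from the other tumour libraries. Its summed level of 10 mesothelial and ID8 tumour markers was 961 CPM, against 2193 to 2495 CPM in the other ID8-FSHR libraries and 2740 to 3455 CPM in ID8, while uninjected libraries had 20.6 to 23.5 CPM. All 4 uninjected libraries lay close together.

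Upstream sequence is shown for the 3 members on which the results below turn most: Prkar1a and Ppargc1a, which differed between the 2 tumour groups, and Prkar2b, which fell furthest. Each stretch is the 120 bases before a start annotated by RefSeq on GRCm38.p6, with every TGACG or CGTCA, the half-site of the cAMP response element (CRE), in capitals.
Prkar1a (chr11:109650829-109650948, plus strand): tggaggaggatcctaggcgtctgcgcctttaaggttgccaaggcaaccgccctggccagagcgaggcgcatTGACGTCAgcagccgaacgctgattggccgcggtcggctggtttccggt
Ppargc1a (chr5:51567726-51567845, minus strand): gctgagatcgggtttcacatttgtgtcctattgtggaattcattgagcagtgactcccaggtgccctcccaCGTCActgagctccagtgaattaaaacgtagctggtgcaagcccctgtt
Prkar2b (chr12:32061278-32061397, minus strand): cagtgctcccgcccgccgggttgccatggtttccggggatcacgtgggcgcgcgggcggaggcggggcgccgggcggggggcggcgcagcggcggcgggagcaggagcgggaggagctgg
The Prkar1a stretch holds the full CRE, TGACGTCA, beginning 49 bases before the start, and its letters include the half-site on both strands. It was picked among several annotated Prkar1a starts for that element, which others of them lack. Ppargc1a and Prkar2b are each shown at the first start listed, so the 3 stretches do not compare the genes alike. The Ppargc1a stretch holds CGTCA, beginning 49 bases before the start, and the Prkar2b stretch holds none of these. RefSeq gave 20 promoter windows of 300 bases (250 before and 50 after a start) for 8 of the 10 members, and none was matched for Sik1. Crem was left out of this search, so its lack of a window says nothing about its promoters. A half-site on either strand was in 7 of the 20 windows, from 5 genes, and in 20.8% of all 32851 windows. The full element was in 1.79% of all windows and, among these 8 members, in overlapping windows of Prkar1a only. These matches describe letters, and windows of 1 gene can share bases.

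With either tumour, the lavage RNA of the regulatory subunits of PKA shifted away from the type II beta form. Prkar2b, which encodes that form, fell about 5-fold, while Prkar1a, the type I alpha form, and Prkaca, the main catalytic subunit, rose modestly. In ID8-FSHR libraries Prkar2b (ENSMUSG00000002997.15, chr12:31958476-32061296, minus strand) had 23.4, 27.9, 24.5 and 13.1 CPM. In ID8 libraries it had 21.6, 18.4, 17.6 and 20.3 CPM, and in uninjected libraries 104, 127, 113 and 105 CPM. All 8 tumour libraries lay below every uninjected library, and ID8-FSHR replicate 4 was the lowest of all. Against uninjected mice the log2 fold change was -2.34 (SE 0.18, edgeR adjusted p = 2.16e-07), 5.06-fold lower, in ID8-FSHR and -2.53 (SE 0.19, edgeR adjusted p = 1.1e-07), 5.77-fold lower, in ID8. In bulk RNA of a mixed lavage, fewer cells of a type and less RNA per cell cannot be told apart.

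Prkar1a (ENSMUSG00000020612.16, chr11:109649405-109669656, plus strand), whose product holds the catalytic subunits inactive in most tissues, was the most abundant member per length. It had 506, 418, 498 and 442 CPM in ID8-FSHR libraries, 553, 534, 563 and 567 CPM in ID8 libraries and 391, 369, 399.8 and 386 CPM in uninjected libraries. The 3 groups did not overlap, with ID8 highest and uninjected lowest. It rose in ID8-FSHR (log2 fold change 0.27, SE 0.07, edgeR adjusted p = 0.00473) and in ID8 (0.52, SE 0.07, edgeR adjusted p = 2.93e-05) against uninjected mice. Prkaca (ENSMUSG00000005469.10, chr8:83972993-83996443, plus strand) had 81.0, 72.3, 76.7 and 75.7 CPM in ID8-FSHR libraries. It had 69.8, 72.3, 70.8 and 69.2 CPM in ID8 libraries and 60.6, 51.8, 59.6 and 57.9 CPM in uninjected libraries. Every tumour library was above every uninjected one. Between the ID8-FSHR and ID8 groups, the closest values were those of ID8-FSHR replicate 2 and ID8 replicate 2. The rise was 1.33-fold in ID8-FSHR (edgeR adjusted p = 7.18e-05) and 1.23-fold in ID8 (edgeR adjusted p = 0.00103).

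**Figure D1:**
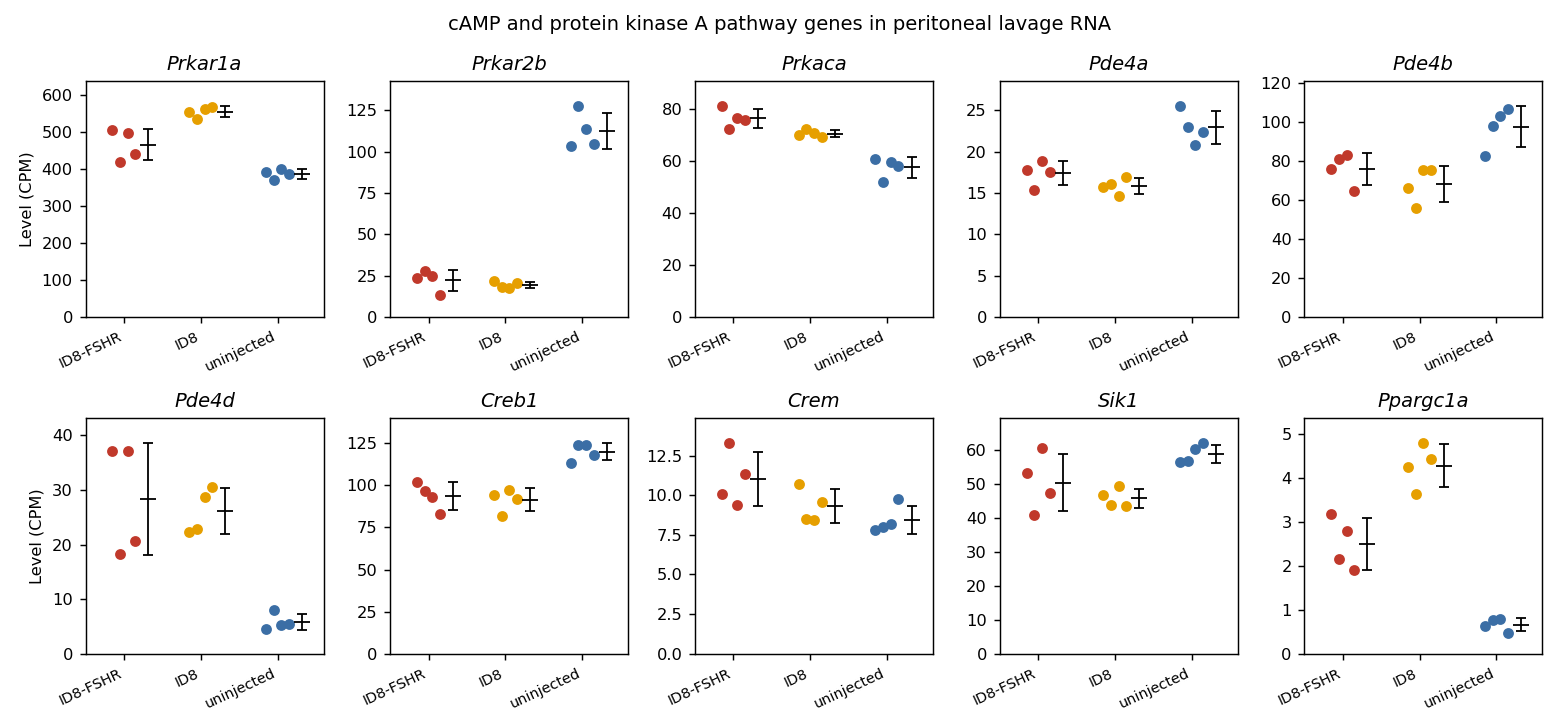
Level in CPM of each of the 10 genes in every library, 1 point per library in the order of replicate number, with the mean and SD of each group in black; axes start at 0 and differ between panels. Prkar2b lies between 13.1 and 27.9 CPM in the 8 tumour libraries and at 104 CPM or more in uninjected ones, and Pde4d and Ppargc1a lie above every uninjected library.

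Setting the 4 regulatory subunit genes on a per-length scale (CPM per kilobase of annotated exon) compares them within each library, where the scaling of libraries cancels. The share of Prkar2b in their sum was 4.84% ± 1.41 in ID8-FSHR, 3.71% ± 0.320 in ID8 and 23.4% ± 2.13 in uninjected libraries (SD, n = 4 each). The share of Prkar1a was 85.9% ± 2.39 in ID8-FSHR, 89.2% ± 0.852 in ID8 and 68.1% ± 2.16 in uninjected libraries. For neither gene did the tumour and uninjected shares overlap. Prkar2a, the type II alpha form, held 9.01% ± 1.50 in ID8-FSHR, 6.91% ± 0.801 in ID8 and 8.40% ± 0.266 in uninjected libraries, and Prkar1b at most 0.239% in any library. The per-length sum of the 4 was 125 ± 9.52 in ID8-FSHR, 144 ± 2.65 in ID8 and 131 ± 2.97 in uninjected libraries, so ID8-FSHR and uninjected libraries overlapped. Among the catalytic subunits, Prkaca made up 65.4% ± 1.26 of the sum with Prkacb in ID8-FSHR, 64.9% ± 1.25 in ID8 and 53.8% ± 1.43 in uninjected libraries. These shares were not tested.

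The PDE4 phosphodiesterase genes moved in opposite directions. Pde4d rose more than 4-fold with either tumour, while Pde4a and Pde4b fell by less than 1.5-fold. Pde4d (ENSMUSG00000021699.17, chr13:108449948-109953461, plus strand) had 37.1, 18.3, 37.2 and 20.6 CPM in ID8-FSHR libraries. It had 22.3, 22.9, 28.8 and 30.6 CPM in ID8 libraries and 4.46, 7.97, 5.33 and 5.47 CPM in uninjected libraries. No tumour library overlapped the uninjected range, and the ID8-FSHR libraries split into 2 high and 2 low values that enclose the ID8 range. The rise was 4.87-fold in ID8-FSHR (log2 fold change 2.28, SE 0.26, edgeR adjusted p = 5.21e-06) and 4.50-fold in ID8 (2.17, SE 0.26, edgeR adjusted p = 8.15e-06).

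Pde4b (ENSMUSG00000028525.16, chr4:102087543-102607259, plus strand) is the PDE4 gene known from mice to be needed for normal inflammatory signalling in macrophages. It had 75.6, 80.8, 83.0 and 64.6 CPM in ID8-FSHR libraries, 66.0, 55.9, 75.2 and 75.0 CPM in ID8 libraries and 82.6, 97.9, 103 and 106 CPM in uninjected libraries. ID8-FSHR replicate 3 and uninjected replicate 1 nearly coincided, so those groups overlapped, whereas ID8 lay below all uninjected libraries. The log2 fold change was -0.36 (SE 0.11, edgeR adjusted p = 0.0137) in ID8-FSHR and -0.52 (SE 0.11, edgeR adjusted p = 0.00137) in ID8. Pde4a (ENSMUSG00000032177.17, chr9:21165714-21213248, plus strand), a broadly expressed relative, had 15.4 to 18.9 CPM in ID8-FSHR, 14.6 to 17.0 CPM in ID8 and 20.8 to 25.5 CPM in uninjected libraries. Both tumour groups lay below the uninjected range, with log2 fold changes of -0.40 (SE 0.09, edgeR adjusted p = 0.00164) in ID8-FSHR and -0.53 (SE 0.09, edgeR adjusted p = 0.000176) in ID8. Per length, Pde4d made up 19.5% ± 5.13 of the 4 PDE4 genes in ID8-FSHR, 20.3% ± 1.44 in ID8 and 3.75% ± 0.893 in uninjected libraries (SD, n = 4 each). Pde4b remained the largest at 60.9% ± 5.12 in ID8-FSHR, 60.1% ± 2.37 in ID8 and 71.5% ± 3.18 in uninjected libraries. The summed per-length level of the family overlapped between groups, at 10.1 to 13.5 in ID8-FSHR, 9.31 to 11.9 in ID8 and 11.6 to 13.6 in uninjected libraries.

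**Figure D2:**
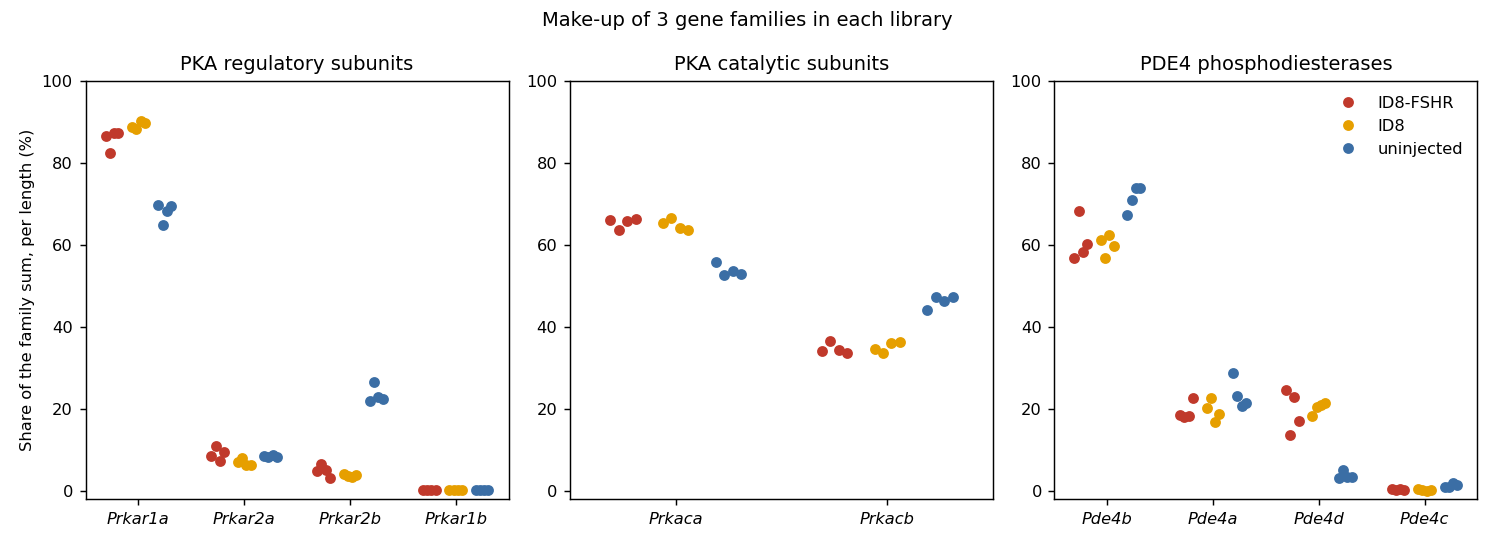
Share of each gene in the per-length sum of its family, in percent, 1 point per library, for PKA regulatory subunits, PKA catalytic subunits and PDE4 phosphodiesterases. Prkar2b lies at 3.06 to 6.49% in the tumour libraries, against 21.9 to 26.5% in uninjected ones, and Pde4d at 13.6 to 24.5% in the tumour libraries, against 3.19 to 5.08% in uninjected ones.

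Among the transcriptional members Ppargc1a changed most and Creb1 fell slightly. Ppargc1a (ENSMUSG00000029167.13, chr5:51454250-51567726, minus strand) encodes PGC-1 alpha, a coactivator of mitochondrial genes, and was the scarcest member per length. It had 3.18, 2.15, 2.78 and 1.90 CPM in ID8-FSHR libraries, 4.26, 3.63, 4.80 and 4.43 CPM in ID8 libraries and 0.631, 0.756, 0.788 and 0.479 CPM in uninjected libraries. These uninjected values rest on 22 to 41 reads per library. The 3 groups did not overlap, ID8 being highest. The rise over uninjected mice was 3.76-fold in ID8-FSHR (log2 fold change 1.91, SE 0.23, edgeR adjusted p = 8.93e-06) and 6.42-fold in ID8 (2.68, SE 0.23, edgeR adjusted p = 4.44e-07).

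Creb1 (ENSMUSG00000025958.14, chr1:64532645-64604548, plus strand), the CREB factor itself, had 102, 96.5, 92.9 and 82.8 CPM in ID8-FSHR libraries. It had 94.5, 81.8, 97.5 and 92.0 CPM in ID8 libraries and 113, 124, 124 and 118 CPM in uninjected libraries. Both tumour groups lay below the uninjected range and overlapped each other. The log2 fold change was -0.36 (SE 0.08, edgeR adjusted p = 0.00109) in ID8-FSHR and -0.39 (SE 0.08, edgeR adjusted p = 0.000551) in ID8. Crem (ENSMUSG00000063889.16, chromosome 18) encodes activators and, from an internal promoter, the cAMP-induced repressor ICER, which gene-level counts do not separate. It had 10.1, 13.3, 9.38 and 11.3 CPM in ID8-FSHR libraries, 10.7, 8.47, 8.44 and 9.56 CPM in ID8 libraries and 7.81, 7.99, 8.20 and 9.74 CPM in uninjected libraries. All 3 groups overlapped. Crem rose 1.31-fold in ID8-FSHR (log2 fold change 0.39, SE 0.13, edgeR adjusted p = 0.0222), a call lost without uninjected replicate 1 (adjusted p = 0.0582) or 2 (adjusted p = 0.0535), and in ID8 it was not called (0.14, SE 0.13, edgeR adjusted p = 0.374). Of its annotated exon bases 8.01% lie under Gm6225 on the other strand, which reached at most 0.158 CPM.

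Sik1 (ENSMUSG00000024042.7, chr17:31844250-31855804, minus strand) encodes a salt-inducible kinase that PKA inhibits and that in turn restrains the CREB coactivators. It had 53.0, 40.8, 60.4 and 47.2 CPM in ID8-FSHR libraries, 46.6, 43.8, 49.2 and 43.3 CPM in ID8 libraries and 56.4, 56.6, 60.1 and 62.0 CPM in uninjected libraries. ID8 lay below every uninjected library, whereas ID8-FSHR replicate 3 reached the uninjected range. Sik1 fell in ID8 (log2 change -0.36, SE 0.10, edgeR's adjusted p = 0.00738). In ID8-FSHR the difference was not called (-0.22, SE 0.10, edgeR adjusted p = 0.072), but it passed without ID8-FSHR replicate 3 (adjusted p = 0.00963).

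Counted together, 5 members rose and 4 fell of 10 in ID8-FSHR against uninjected mice, where 33.9% of all 16915 tested genes were higher and 30.6% lower. In ID8 against uninjected mice 4 rose and 5 fell, against 32.7% and 31.4% of tested genes. For 7 members in ID8-FSHR and 9 in ID8 every tumour library lay on one side of every uninjected library, which held for 57.0% and 62.5% of tested genes. The median log2 fold change of the members was 0.02 in ID8-FSHR, against 0.00083 over all tested genes, and -0.11 in ID8, against -0.03. Both comparisons use the same uninjected libraries. Leaving out ID8-FSHR replicate 2 left the count at 5 members higher and 4 lower in ID8-FSHR.

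**Figure D3:**
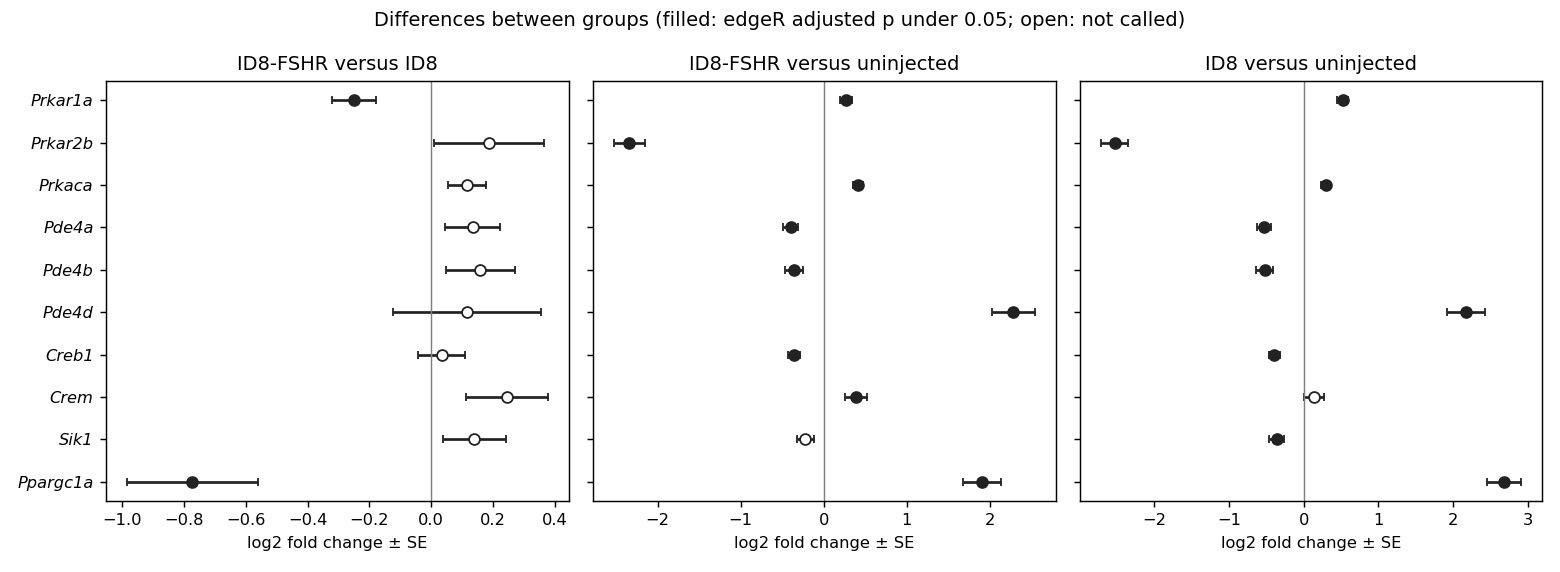
Log2 fold change of each gene in the 3 comparisons, from edgeR, ± an SE worked out from the F value of the test. Filled points have an adjusted p under 0.05 and the horizontal scale differs between panels. Prkar1a and Ppargc1a are the only filled points for ID8-FSHR versus ID8, both below 0.

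ID8-FSHR against ID8 compares lavages from mice given the line with and without the added receptor, and other differences between the lines cannot be told apart from it. Of the 10 members 0 were higher and 2 lower, Prkar1a and Ppargc1a, where 6.04% of all tested genes were higher and 5.56% lower. Ppargc1a averaged 2.50 ± 0.585 CPM in ID8-FSHR and 4.28 ± 0.489 CPM in ID8 (SD, n = 4 each), or -0.77 on the log2 scale (SE 0.21, edgeR's adjusted p = 0.0341). Prkar1a averaged 466 ± 42.6 CPM in ID8-FSHR and 554 ± 14.8 CPM in ID8, or -0.25 on the log2 scale (SE 0.07, edgeR's adjusted p = 0.0385). For both genes every ID8-FSHR library lay below every ID8 library. Prkaca was the other member whose groups did not overlap, the lowest ID8-FSHR value (72.291 CPM) lying just above the highest ID8 value (72.282 CPM), and it was not called (log2 fold change 0.12, SE 0.06, edgeR adjusted p = 0.24). Groups without overlap were seen for 18.5% of all tested genes.

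Neither call was firm. Prkar1a lost its call when any 1 library other than ID8-FSHR replicates 1 and 3 was left out, with an adjusted p up to 0.107, and Ppargc1a when ID8-FSHR replicate 2, 3 or 4 or ID8 replicate 1, 3 or 4 was left out, up to 0.0999. Without ID8-FSHR replicate 2 the adjusted p was 0.0746 for Prkar1a and 0.0761 for Ppargc1a, and 0 members were lower. The other 7 members had an edgeR adjusted p between 0.247 (Crem) and 0.806 (Creb1). Their log2 fold changes ranged from 0.03 (Creb1) to 0.25 (Crem), and Prkar2b, at 0.19, passed without ID8-FSHR replicate 4 (0.37, adjusted p = 0.0451). The median over the 10 members was 0.13, against -0.01 over all tested genes.

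Other genes of the pathway were read from 7 lists of 108 genes, of which 107 were in the table and 85 were tested. Against uninjected mice 28 of the 85 were higher and 32 lower in ID8-FSHR, where 33.9% of all tested genes were higher and 30.6% lower. The counts were also 28 and 32 in ID8, where 32.7% of all tested genes were higher and 31.4% lower. Between ID8-FSHR and ID8, 2 of the 85 were higher and 9 lower, beside 6.04% and 5.56% of all tested genes. The counts of the single lists below stand beside these same shares. The median log2 fold change over the 85 was -0.18 in ID8-FSHR against uninjected mice (0.00083 over all tested genes), -0.07 in ID8 against uninjected mice (-0.03 over all) and -0.08 between ID8-FSHR and ID8 (-0.01 over all). The count of 2 higher between the tumour groups was 8 without ID8-FSHR replicate 1, and 1 without ID8-FSHR replicate 4 or any 1 of the 4 ID8 libraries. Mesothelial and ID8 tumour markers, at 961 to 3455 CPM in tumour libraries against 20.6 to 23.5 CPM in uninjected ones, and B cell markers, at 292 to 520 CPM against 2637 to 3436 CPM, moved with these counts, and their part in them was not tested.

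Among the remaining PKA genes an inhibitor rose furthest. Pkia, which encodes a peptide inhibitor of the catalytic subunit, stood at 38.5 ± 11.0 CPM in ID8-FSHR and 45.3 ± 2.85 CPM in ID8, against 0.619 ± 0.253 CPM in uninjected libraries (SD, n = 4 each). Its log2 fold change against uninjected mice was 5.94 (SE 0.28, edgeR adjusted p = 3.56e-09) in ID8-FSHR and 6.17 (SE 0.28, edgeR adjusted p = 2.38e-09) in ID8. The inhibitor genes Pkib and Pkig fell in both groups, with log2 fold changes of -1.03 and -0.81 in ID8-FSHR and -1.17 and -0.66 in ID8. Of the cAMP-activated exchange factors, Rapgef3 (EPAC1) rose to 9.62 ± 4.62 CPM in ID8-FSHR and 14.4 ± 3.82 CPM in ID8, against 1.84 ± 0.438 CPM in uninjected libraries. Rapgef4 (EPAC2) fell to 1.70 ± 0.590 CPM in ID8-FSHR and 1.37 ± 0.487 CPM in ID8, against 8.76 ± 1.51 CPM in uninjected libraries. In this list of 9 tested genes 2 rose and 4 fell in each tumour group, and 0 of 9 differed between ID8-FSHR and ID8.

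Adenylyl cyclase and receptor genes moved in both directions. Adcy1 rose to 0.669 ± 0.309 CPM in ID8-FSHR and 0.630 ± 0.203 CPM in ID8, against 0.0218 ± 0.0436 CPM in uninjected libraries (log2 fold change 4.89 in ID8-FSHR and 4.80 in ID8). Its uninjected values ran only from 0 to 0.0871 CPM, so the size of these fold changes depends on the fit. Adcy6 rose to 139 ± 49.1 CPM in ID8-FSHR and 181 ± 23.4 CPM in ID8, against 13.7 ± 1.73 CPM in uninjected libraries (log2 fold change 3.34 in ID8-FSHR and 3.72 in ID8). Adcy7, the cyclase best known from macrophages and lymphocytes, fell to 131 ± 30.8 CPM in ID8-FSHR and 109 ± 7.50 CPM in ID8, against 242 ± 7.93 CPM in uninjected libraries. Of 12 tested cyclase and G protein alpha genes 3 rose and 5 fell in ID8-FSHR, and 3 rose and 4 fell in ID8. Among 13 tested receptors that signal through the stimulatory G protein, 2 rose and 6 fell in ID8-FSHR and 2 rose and 8 fell in ID8. The prostaglandin E2 receptor Ptger4 stood at 24.4 ± 2.40 CPM in ID8-FSHR and 28.9 ± 2.23 CPM in ID8, against 85.5 ± 18.9 CPM in uninjected libraries. The adenosine receptor Adora2a stood at 8.73 ± 3.15 CPM in ID8-FSHR and 5.83 ± 0.875 CPM in ID8, against 29.0 ± 1.93 CPM in uninjected libraries.

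Of 11 other tested cAMP phosphodiesterase genes, 3 rose and 6 fell in ID8-FSHR, and 2 rose and 6 fell in ID8. Pde4c, the PDE4 gene outside the 10, fell to 0.184 ± 0.110 CPM in ID8-FSHR and 0.0676 ± 0.0767 CPM in ID8, against 0.933 ± 0.368 CPM in uninjected libraries. Pde7a fell to 31.5 ± 2.34 CPM in ID8-FSHR and 26.5 ± 4.04 CPM in ID8, against 73.9 ± 6.01 CPM in uninjected libraries, and Pde8a to 22.0 ± 7.76 CPM in ID8-FSHR and 15.6 ± 2.31 CPM in ID8, against 49.8 ± 1.47 CPM in uninjected libraries. Pde1a rose to 2.66 ± 1.01 CPM in ID8-FSHR and 2.26 ± 0.861 CPM in ID8, against 0.0319 ± 0.0415 CPM in uninjected libraries. Genes of A-kinase anchoring proteins, which tether PKA to structures in the cell, rose in 7 of 12 and fell in 4 in ID8-FSHR, and rose in 7 and fell in 3 in ID8. Wasf1 (WAVE1) rose to 20.2 ± 6.66 CPM in ID8-FSHR and 24.9 ± 3.62 CPM in ID8, against 0.0293 ± 0.0361 CPM in uninjected libraries. The uninjected levels of Pde1a and Wasf1 were so low that the size of their rises depends on the fit. Akap6 had 0 counts in all uninjected libraries and was at least 61.8-fold higher in ID8-FSHR and at least 128-fold higher in ID8, taking 3 counts over the uninjected group as its limit. Akap5 and Ezr were lower in ID8-FSHR than in ID8 (log2 fold changes -1.02 and -0.78, edgeR adjusted p = 0.00628 and 0.00154).

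**Figure D4:**
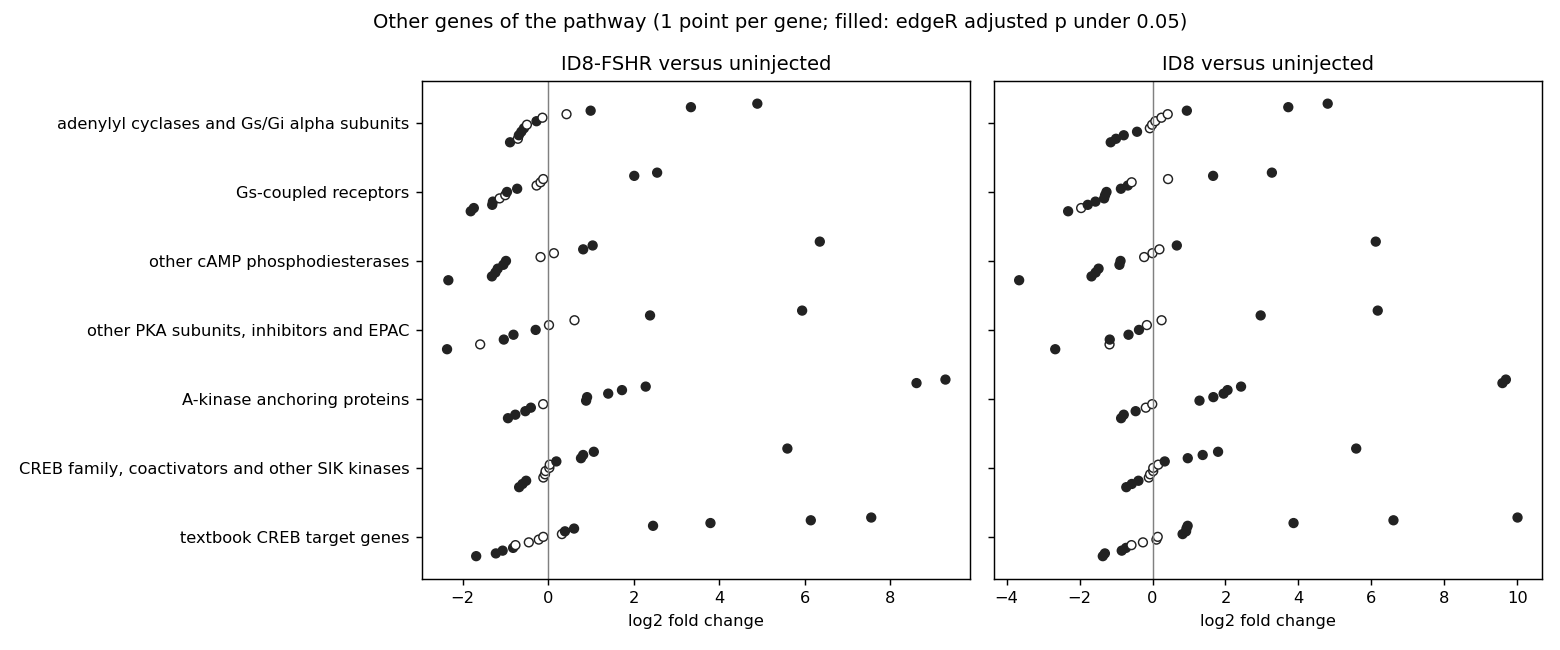
Log2 fold change of the 85 tested pathway genes by list, ID8-FSHR (left panel) and ID8 (right panel) against uninjected libraries, 1 point per gene, filled where edgeR's adjusted p is under 0.05. Each list holds filled points on both sides of 0 in both panels, 28 higher and 32 lower in each. The points of Akap6 and Bdnf rest on 0 and 2 uninjected counts, so their place depends on the fit. The same holds for Adcy1 and Pde1a, at no more than 0.0871 CPM in any uninjected library. It also holds for Mc1r, at no more than 0.0404 CPM there, and for Wasf1.

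In the CREB family and its coactivators 5 of 13 rose and 3 fell in each tumour group. Creb5 had the largest rise, to 57.6 ± 19.3 CPM in ID8-FSHR and 57.2 ± 12.4 CPM in ID8, against 1.17 ± 1.01 CPM in uninjected libraries. Crebbp, which encodes the CREB-binding coactivator CBP, fell to 96.0 ± 4.21 CPM in ID8-FSHR and 117 ± 5.37 CPM in ID8, against 153 ± 13.7 CPM in uninjected libraries. Crtc2, a coactivator that SIK kinases hold in the cytoplasm, fell to 35.1 ± 1.62 CPM in ID8-FSHR and 35.8 ± 0.514 CPM in ID8, against 53.1 ± 2.94 CPM in uninjected libraries. Creb3l2, an endoplasmic reticulum factor of the wider family, was lower in ID8-FSHR than in ID8, at 120 ± 37.0 CPM in ID8-FSHR against 237 ± 18.9 CPM in ID8 (log2 fold change -0.98, SE 0.18, edgeR adjusted p = 0.00497).

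Of 15 tested textbook CREB targets, 6 rose and 4 fell in ID8-FSHR, where 33.9% and 30.6% of all tested genes did so. In ID8 7 rose and 4 fell, beside 32.7% and 31.4% of all tested genes. The immediate early genes went both ways: Fosb and Junb fell in both groups, Nr4a2 and Nr4a3 rose in both, Nr4a1 rose in ID8, and Fos and Egr1 were not called. Star, which brings cholesterol into mitochondria, rose to 107 ± 37.4 CPM in ID8-FSHR and 147 ± 15.8 CPM in ID8, against 1.51 ± 0.174 CPM in uninjected libraries. Rgs2 fell to 57.9 ± 7.07 CPM in ID8-FSHR and 72.1 ± 17.2 CPM in ID8, against 186 ± 20.2 CPM in uninjected libraries, and Dusp1 to 135 ± 58.3 CPM in ID8-FSHR and 157 ± 62.2 CPM in ID8, against 282 ± 62.5 CPM in uninjected libraries. Between the tumour groups, the orphan nuclear receptor gene Nr4a3 was higher in ID8-FSHR, with 9.68 ± 3.17 CPM against 3.44 ± 0.781 CPM in ID8 (log2 fold change 1.49, SE 0.27, edgeR adjusted p = 0.00346). The neurotrophin gene Bdnf was lower, with 2.31 ± 0.867 CPM in ID8-FSHR against 12.7 ± 2.35 CPM in ID8 (log2 fold change -2.45, SE 0.32, edgeR adjusted p = 0.000433), and Cited2 was lower as well (-0.53, SE 0.08, edgeR adjusted p = 0.00112). Bdnf had 2 counts over all uninjected libraries, so its ratios to them were 236 (exact 95% counting interval 65.0 to 1953) in ID8-FSHR and 1293 (358 to 10680) in ID8.

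Markers of the cells in the lavage moved with these genes. Of 8 B cell markers all 8 fell in both tumour groups, their sum being 292 to 520 CPM in ID8-FSHR, 341 to 486 CPM in ID8 and 2637 to 3436 CPM in uninjected libraries, with none at 0. Prkar2b per 1000 CPM of that sum was 44.6 to 57.7 in ID8-FSHR, 37.2 to 53.9 in ID8 and 30.5 to 45.8 in uninjected libraries, which overlap. Set against pan-leukocyte markers in the same way, it was 5.57 to 11.4 in ID8-FSHR, 8.34 to 11.3 in ID8 and 22.3 to 28.85 in uninjected libraries. Set against large peritoneal macrophage markers, it was 3.31 to 4.42 in ID8-FSHR, 2.76 to 4.325 in ID8 and 8.77 to 13.2 in uninjected libraries. By both of these it was lower in every tumour library. The part of B cells in the fall of Prkar2b was not tested. The 6 platelet and megakaryocyte markers summed to 35.8 to 91.5 CPM in ID8-FSHR, 81.1 to 122 CPM in ID8 and 295 to 395 CPM in uninjected libraries, and Gp9, Gp1bb and Gp6 had 0 counts in all ID8 and uninjected libraries. Pf4 made up most of these sums, averaging 54.4 CPM in ID8-FSHR, 93.9 CPM in ID8 and 328 CPM in uninjected libraries. Itga2b, the only other tested marker of the 6, went the other way. It rose to 5.50 CPM in ID8-FSHR and 6.26 CPM in ID8, against 2.99 CPM in uninjected libraries. The part of platelets in the fall of Prkar2b was not tested. Of 6 pan-leukocyte markers 5 fell in ID8-FSHR and 6 in ID8, their sum being 2056 to 3335 CPM in ID8-FSHR, 1912 to 2204 CPM in ID8 and 4416 to 4685 CPM in uninjected libraries. Creb1 per 1000 CPM of that sum was 28.95 to 49.7 in ID8-FSHR, 37.1 to 49.5 in ID8 and 24.5 to 28.1 in uninjected libraries, higher in each tumour library than in each uninjected one, although its CPM fell. Pde4b per 1000 CPM of the same sum was 24.2 to 36.75 in ID8-FSHR, 25.4 to 38.95 in ID8 and 17.8 to 23.15 in uninjected libraries. For Pde4a (4.62 to 8.62 in ID8-FSHR, 7.31 to 8.805 in ID8 and 4.45 to 5.50 in uninjected libraries) and Sik1 (12.2 to 25.8 in ID8-FSHR, 19.85 to 25.01 in ID8 and 12.15 to 13.5 in uninjected libraries), ID8-FSHR replicate 2 lay within the uninjected range and the other 7 tumour libraries above it. The part of the leukocyte share in the falls of Creb1, Pde4a, Pde4b and Sik1 was not tested.

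Of 10 mesothelial and ID8 tumour markers 8 rose in ID8-FSHR and 9 in ID8, none being at 0 in uninjected libraries, and 4 of 10 were lower in ID8-FSHR than in ID8. Ppargc1a per 1000 CPM of their sum was 0.866 to 2.24 in ID8-FSHR and 1.26 to 1.50 in ID8, so these tumour groups overlapped, while its CPM did not. The value of 2.24 is that of ID8-FSHR replicate 2, and without it the ID8-FSHR range was 0.866 to 1.27. Prkar1a per 1000 CPM of the same sum was 201 to 436 in ID8-FSHR and 164 to 195 in ID8, higher in ID8-FSHR where its CPM was lower, and 201 to 215 in ID8-FSHR without replicate 2. Other sums read differently. Per 1000 CPM of pan-leukocyte markers Ppargc1a was 0.644 to 1.55 in ID8-FSHR and 1.65 to 2.44 in ID8, without overlap. For B cell markers it was 4.13 to 7.74 and 8.77 to 10.6, also apart. For large peritoneal macrophage markers it was 0.319 to 0.556 and 0.545 to 0.898, which overlap. Prkar1a overlapped for each of these sums, at 125.5 to 246 in ID8-FSHR and 242 to 294 in ID8 for pan-leukocyte markers. Large peritoneal macrophage markers fell in 6 of 8 in each tumour group, with Gata6 higher, and summed to 3941 to 6743 CPM in ID8-FSHR, 4984 to 6660 CPM in ID8 and 9520 to 11813 CPM in uninjected libraries. Natural killer cell markers were higher in ID8-FSHR than in ID8 in 6 of 6, at sums of 20.1 to 171 CPM in ID8-FSHR and 9.32 to 33.8 CPM in ID8, as were 3 of 8 T cell markers. The parts of these cells in the rises of Pde4d, Prkar1a, Prkaca, Crem and Ppargc1a, and in the differences between ID8-FSHR and ID8, were not tested.

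**Figure D5:**
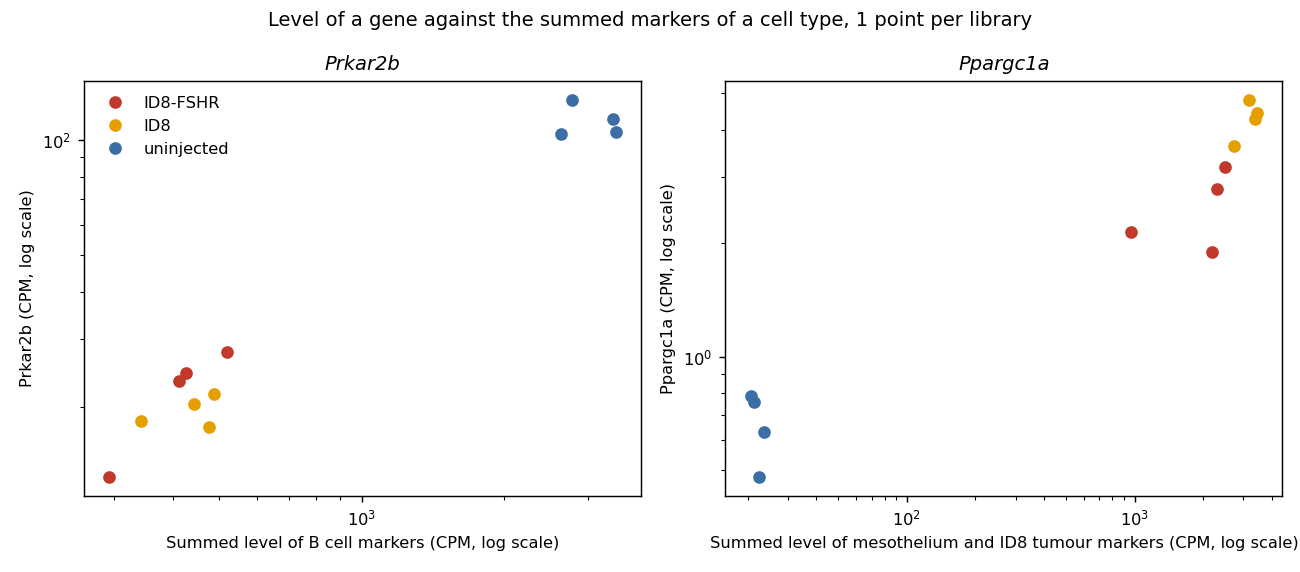
Prkar2b against the summed B cell markers, and Ppargc1a against the summed mesothelial and ID8 tumour markers, in CPM on log axes, 1 point per library. The tumour libraries lie at the low end of both measures for Prkar2b and at the high end of both for Ppargc1a.

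Per length, Prkar1a was the most abundant member in every group, at 108 ± 9.87 in ID8-FSHR, 128 ± 3.43 in ID8 and 89.4 ± 2.98 CPM per kilobase in uninjected libraries (SD, n = 4 each). In uninjected libraries Prkar2b came next, at 30.8 ± 3.00, above Prkaca at 23.1 ± 1.59, and these did not overlap. In both tumour groups Prkaca came next, at 30.7 ± 1.44 in ID8-FSHR and 28.3 ± 0.533 in ID8, and Sik1 came after it, at 9.81 ± 1.63 in ID8-FSHR and 8.90 ± 0.535 in ID8. Pde4b, Creb1 and Prkar2b followed between 5.33 and 7.19 on average. In ID8-FSHR they came in that order and their ranges overlapped. In ID8 the order was Creb1, Pde4b and Prkar2b. There Pde4b overlapped both others, while Creb1 (5.95 to 7.09) lay above Prkar2b (4.83 to 5.90). Pde4d, at 2.36 ± 0.856 in ID8-FSHR and 2.18 ± 0.348 in ID8, overlapped Pde4a in both tumour groups, but in uninjected libraries it was at 0.484 ± 0.126, below Pde4a at 2.99 ± 0.253 and Crem at 1.43 ± 0.150. Ppargc1a was last in each group, at 0.380 ± 0.0887 in ID8-FSHR, 0.649 ± 0.0742 in ID8 and 0.101 ± 0.0213 in uninjected libraries.

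Likeness was the root mean square difference in log2(CPM + 0.5) over the 12 libraries, each gene centred on its own mean. The candidates were 9557 to 9558 tested genes with a mean of at least 3 on that scale. Symbols of the Gm, Rik and clone kinds were left out. The genes most like Prkar2b were Bank1 (0.157) and Cd37 (0.197), and those most like Ppargc1a were Bmp1 (0.155) and Zfp579 (0.170). For Pde4d they were Bicdl1 (0.195) and Ttll12 (0.224), and for Crem Uqcrfs1 (0.0696) and Ndufs3 (0.0985). Prkar1a had the closest neighbours, Wbp2 (0.0372) and Ralgapa2 (0.0416). These are descriptions over libraries that share the contrast of tumour and uninjected mice. Bank1 is itself among the B cell markers, with 76.9 ± 14.1 CPM in ID8-FSHR, 76.2 ± 5.05 CPM in ID8 and 401 ± 41.6 CPM in uninjected libraries.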

How the data were processed

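RNA of 12 peritoneal lavage samples was column-purified, and ribosome-depleted libraries were made, per the labels' protocols. The values used are the read counts per gene that the authors deposited, 55401 genes in whole numbers, not normalized. Reads were handled with bcl2fastq 2.20, STAR 2.7.9a and featureCounts (Subread 1.6.4) on GRCm38.p6, per the submitters' processing notes. The strand setting, multi-mapping rule and annotation release were not given in the sources used here.

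Genes were kept by edgeR's filterByExpr (16915 genes), scaled by TMM and tested by edgeR's quasi-likelihood test in 1 fit over the 3 groups (edgeR 4.0.16, limma 3.58.1, R 4.3.3). Benjamini-Hochberg adjustment ran over all tested genes of a comparison, with a threshold of 0.05. Each SE is the absolute log2 fold change divided by the square root of the test's F value, as edgeR reports none. The steps were tested on simulated data. Exon lengths and coordinates are those of GENCODE on GRCm38, whose release may differ from the authors'. The 10 genes and the lists were chosen with earlier results of these data known. The rule for naming pathway genes was at most 3 called genes per list and direction, by size of the log2 fold change in a comparison. The text names only some of those, and the choice among them, like that of the other pathway genes named, was made after their values were seen. Alternatives were DESeq2 1.42.0, limma-voom, other scaling and filters, 2-group fits, the replicate number as a block and each library left out. The series text calls the libraries biological replicates. Counting intervals and the limit of 3 counts cover counting error only.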

Additional observations from a re-analysis of the deposited data

How the results depend on the processing

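Each result was recomputed under 20 alternatives. For the single members, 571 of 600 values kept their direction and their side of the threshold. Against uninjected mice only the calls of Crem and Sik1 in ID8-FSHR changed, Sik1 also passing with a filter of 1 CPM (adjusted p = 0.0468). For ID8-FSHR against ID8, leaving out 1 library gave Pde4d from -0.0421 (without ID8-FSHR replicate 3, and -0.04 without replicate 1) to 0.29 on the log2 scale, and Creb1 from -0.015 (without ID8 replicate 2, and -0.01 without ID8-FSHR replicate 1) to 0.0897. In that comparison 0 members were lower with no filter on low counts and 1 in a fit of only the 2 groups. Leaving out 1 library gave 0 to 1 members higher, 0 to 2 members lower and 1 to 8 pathway genes higher. Pathway genes higher were 1 in a fit of only the 2 groups, and pathway genes lower were 14 with DESeq2, against 9 with edgeR. The causes were not tested. With the replicate number as a block, 0 members were higher and 2 lower between the tumour groups, 5 higher and 5 lower in ID8-FSHR and 4 higher and 5 lower in ID8 against uninjected mice, Sik1 being the added call (log2 fold change -0.23, adjusted p = 0.0375). Same-numbered libraries correlated between -0.217 and 0.352, and most matched another number best. ID8-FSHR replicates 2 and 3 matched their own number best in ID8, as did ID8 replicate 2 in uninjected libraries. With 4 libraries per group, such correlations cannot decide whether the numbers pair them. The replicate numbers are those of the labels, and the sample titles number some of the ID8-FSHR libraries otherwise. The block and these correlations hold for the labels' numbers only. Counts of 22 to 41 per library limit Ppargc1a in uninjected mice.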
